A study of Mus musculus with 4 samples.

Results

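Collagens IX and XI are minor partners of collagen II in the fibrils of cartilage. Their chains are encoded by Col9a1, Col9a2, Col9a3, Col11a1 and Col11a2, and open chromatin at these 5 of 18101 protein-coding genes was examined in primary mouse chondrocytes. The genes were chosen by name, and for each the peaks with a summit within 1 kb of the gene start, and within the gene body and 50 kb on each side, were taken from every peak list.

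Collagen IX lies on the surface of collagen II fibrils, and its molecule combines the products of Col9a1, Col9a2 and Col9a3. Collagen XI sits inside the fibril, where it starts fibril assembly and limits fibril width. Its molecule joins the Col11a1 and Col11a2 chains to a chain made from Col2a1, the collagen II gene. In chondrocytes these genes are known targets of SOX9, the transcription factor that drives the cartilage programme, which binds DNA at short sequences such as ACAAAG and ACAATG and often as an inverted pair.

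The assay was ATAC-Seq, in which the Tn5 transposase inserts sequencing adapters where chromatin is open. The cells were primary chondrocytes from rib cartilage of newborn mice, freed by collagenase and used within a few passages. Cho had 2 libraries and no genotype in its labels. WT had 1 library of wild-type cells, and E160/E308_Del, called the deletion library here, had 1 library of cells homozygous for deletion of both E160 and E308, which are enhancers far upstream of Sox9. The study describes both as littermates. The deletions were made by CRISPR editing in C57BL/6J embryos and are present in every cell of the body. A difference between WT and the deletion library is a difference between 2 libraries, and whether fewer cells had a site open or each cell had it less open cannot be told apart.

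The libraries differed in depth and in how their peaks were called. They held 76242 (Cho replicate 1), 148330 (Cho replicate 2), 90971 (WT) and 169591 peaks (deletion). Below, 4 values given together follow this library order, and 3 values given together leave out Cho replicate 1, unless other libraries or genes are named. The background of the lists corresponded to 4622 to 20816 tags per Mb, lowest in WT and highest in Cho replicate 2. Cho replicate 1 was called against 1 constant background, whereas the other lists used the larger of a library background and a local one. Cho replicate 2 was in GRCm38 coordinates and the others in NCBIM37 (mm9). At the deleted elements, fold enrichment was 15.4 (E308) and 13.4 (E160) in WT. The deletion library had no peak at E160 and a peak of 3.07, with a summit pileup of 4 tags, at E308. Promoters of chondrocyte marker genes held a peak for 3, 5, 5 and 5 of 6 genes in library order. Comp was the marker without one in every list. Muscle markers held one for 0, 2, 1 and 2 of 4 genes and blood markers for 0, 1, 0 and 1 of 3. Fibroblast and bone markers held one for 3, 6, 4 and 5 of 6, and endothelial markers for 2, 1, 2 and 2 of 3. Epithelial markers held one for 0, 1, 1 and 1 of 3 and neuron markers for 2, 2, 2 and 2 of 3. Over all genes the share was 58.6%, 64.7%, 62.0% and 67.8%, so these counts do not by themselves show which cells were present. The part of other cell types in the results at the collagen genes was not tested.

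The strongest intronic WT peak of each gene, and an upstream Col9a1 peak found in all 4 lists, are shown because they are strong open sites away from the gene starts. Each is the plus strand of NCBIM37, which is also the strand of the gene, over 121 bases centred on the WT summit. The sites are chr1:24226006-24226126 and chr1:24176448-24176568 for Col9a1, chr4:120713755-120713875 for Col9a2, chr2:180346853-180346973 for Col9a3, chr3:113802401-113802521 for Col11a1 and chr17:34189693-34189813 for Col11a2. Capitals mark the SOX words ACAAAG or ACAATG, the RUNX word TGTGGT and the AP-1 word TGANTCA, on either strand.
Col9a1 intron: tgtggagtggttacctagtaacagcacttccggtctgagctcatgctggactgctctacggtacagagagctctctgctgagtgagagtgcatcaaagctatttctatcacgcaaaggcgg
Col9a1 upstream: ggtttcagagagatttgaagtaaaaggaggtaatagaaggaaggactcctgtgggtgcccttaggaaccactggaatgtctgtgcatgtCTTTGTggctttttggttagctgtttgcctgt
Col9a2 intron: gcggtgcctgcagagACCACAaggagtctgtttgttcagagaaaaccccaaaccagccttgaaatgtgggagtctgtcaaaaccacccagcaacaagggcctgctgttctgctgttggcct
Col9a3 intron: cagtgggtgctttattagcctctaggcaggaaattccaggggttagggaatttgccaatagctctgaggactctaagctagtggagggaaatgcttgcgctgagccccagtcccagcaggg
Col11a1 intron: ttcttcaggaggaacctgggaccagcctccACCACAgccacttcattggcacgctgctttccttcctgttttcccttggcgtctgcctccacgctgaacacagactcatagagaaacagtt
Col11a2 intron: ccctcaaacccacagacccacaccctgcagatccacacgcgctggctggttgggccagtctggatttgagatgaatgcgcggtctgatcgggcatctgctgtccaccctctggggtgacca

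Of these 6 windows, the upstream Col9a1 site held a SOX word on the minus strand, and the Col9a2 and Col11a1 introns each held a RUNX word on the minus strand. The other windows held none of the 3 words.

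Among the shared WT peaks of the 5 loci, a pair of inverted SOX half-sites (ACAA, 5 to 7 bases, TTGT) lay within 150 bp of a summit at 1 peak, in an intron of Col9a3, 3.19 kb from the gene start. It is shown with its surroundings, plus strand of NCBIM37, chr2:180335510-180335589, with the pair in capitals. The pair began 147 bp upstream of the WT summit, near the edge of the window searched.
Col9a3 SOX pair: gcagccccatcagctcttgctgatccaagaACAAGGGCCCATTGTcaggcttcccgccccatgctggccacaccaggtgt

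The promoter sequences were taken from RefSeq (GRCm38, plus strand), which held entries for 4 of the 5 genes. They are the 150 bases before each start, chr1:24177460-24177609 and chr1:24195053-24195202 for Col9a1, chr4:121039416-121039565 for Col9a2, chr3:114030390-114030539 for Col11a1 and chr17:34038988-34039137 for Col11a2. Capitals mark the TATA word (TATAAA), the CCAAT box and the GC box (GGGCGG) on either strand, which occurred in 7.57%, 24.5% and 28.6% of 32851 RefSeq promoters over the same 150 bases.
Col9a1 first start: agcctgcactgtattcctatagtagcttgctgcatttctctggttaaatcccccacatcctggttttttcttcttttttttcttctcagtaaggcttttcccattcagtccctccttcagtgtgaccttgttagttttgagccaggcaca
Col9a1 second start: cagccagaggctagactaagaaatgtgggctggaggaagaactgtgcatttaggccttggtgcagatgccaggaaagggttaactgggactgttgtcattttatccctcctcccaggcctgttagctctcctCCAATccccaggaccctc
Col9a2: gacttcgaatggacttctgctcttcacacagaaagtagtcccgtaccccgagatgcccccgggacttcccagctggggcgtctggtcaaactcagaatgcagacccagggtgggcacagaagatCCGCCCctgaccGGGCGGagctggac
Col11a1: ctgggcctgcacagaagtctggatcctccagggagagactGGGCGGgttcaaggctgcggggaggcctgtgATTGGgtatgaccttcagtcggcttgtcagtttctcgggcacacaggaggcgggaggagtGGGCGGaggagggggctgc
Col11a2: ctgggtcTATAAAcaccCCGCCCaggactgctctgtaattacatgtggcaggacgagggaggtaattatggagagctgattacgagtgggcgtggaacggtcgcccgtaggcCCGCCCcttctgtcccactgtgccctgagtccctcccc

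The Col11a2 sequence held TATAAA and 2 GC boxes. The TATAAA lay near the 5′ end of the 150 bases, at the side away from the start of the entry. That start, chr17:34039138, was itself downstream of the GRCm38 gene start used for the peaks, chr17:34038919, and so was the word. The word alone therefore does not show a TATA promoter. Col11a1 held 2 GC boxes and a CCAAT box, and Col9a2 held 2 GC boxes. Neither Col9a1 start had a GC box or a CpG dinucleotide in these 150 bases, where the median promoter had 4 CpG, while Col9a2, Col11a1 and Col11a2 had 8, 6 and 8. GC content was 43.3% at the first Col9a1 start and 64.7% at Col11a1, with a median of 54.0% over all promoters.

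The first question was whether the promoters of these genes were open. Fold enrichment, the deposited height of a peak, is the number of tags piled up at the summit over the background expected there, with 1 added to each. Col11a1 had the strongest promoter of the family. It encodes the α1(XI) chain and lies at chr3:113733458-113923636. Its fold enrichment was 20.3 and 14.0 in the Cho replicates, and WT had 10.8 and the deletion library 10.3. The mean of Cho was 17.1 ± 4.42 (SD, n = 2). These values rest on a constant background in Cho replicate 1 and local ones elsewhere, and by summit pileup over the library background the order was another, with 34.4, 185, 119 and 97.4. In WT its summit lay 93 bp upstream of the gene start.

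Col9a2, for the α2(IX) chain, lies at chr4:120711990-120727927. Its promoter was called in every list but weakly, at a fold enrichment of 4.65 and 4.44 in the Cho replicates, 5.38 in WT and 5.29 with the deletion. The mean of Cho was 4.54 ± 0.145 (SD, n = 2). The WT summit was 544 bp downstream of the gene start, so the annotated start itself was not the point of highest signal.

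Col9a1, Col9a3 and Col11a2 had no promoter peak in Cho replicate 1, where the nearest summits were −7919 bp, 3071 bp and −5165 bp from the gene start. Col9a1, for the α1(IX) chain, lies at chr1:24184449-24259577, and its fold enrichment was 12.7, 7.26 and 7.42 in the 3 other lists. Col9a3, for the α3(IX) chain, lies at chr2:180332495-180356894 and had 4.94, 5.70 and 4.44. Col11a2, for the α2(XI) chain, lies at chr17:34176382-34203630 and had 5.27, 6.10 and 6.94. These last 2 genes had several low summits near the start rather than a single one: Col9a3 had 2 in WT and 3 in the deletion library, and Col11a2 had 3 and 4. Measured from the NCBIM37 start, the strongest Col11a2 summit within 1 kb was at a like place in these lists, at 828, 850 and 803 bp. In Cho replicate 2 that summit, with a fold enrichment of 5.86, lay more than 1 kb from the GRCm38 start, so the 5.27 given above belongs to another summit, at −737 bp on the NCBIM37 scale.

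**Figure D1:**
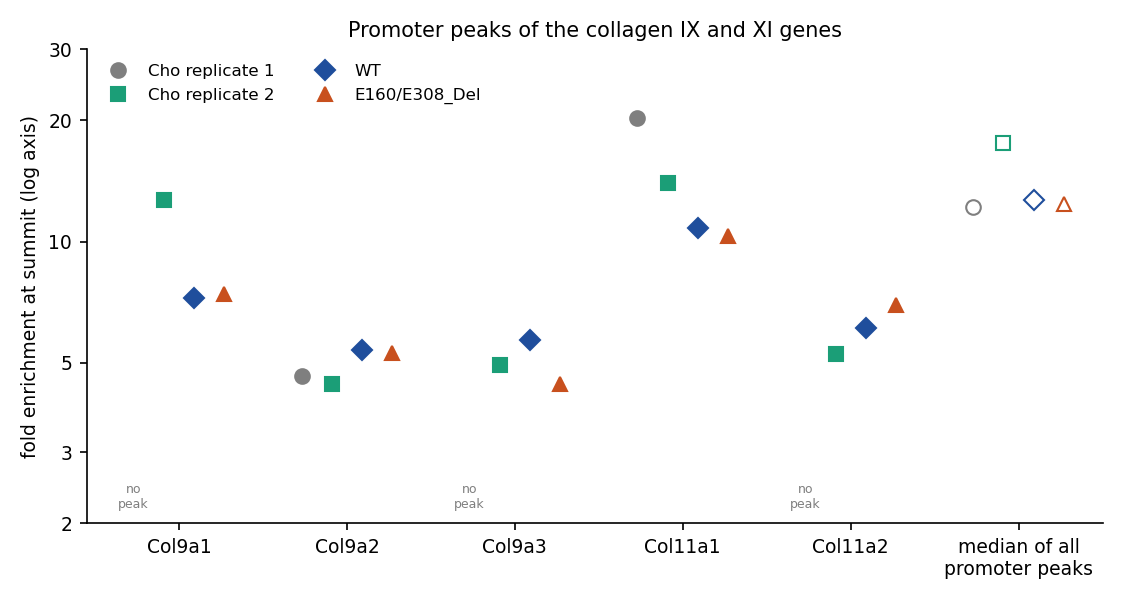
Fold enrichment (log axis) of the strongest promoter peak of each gene in the 4 libraries, with open symbols for the median of all promoter peaks of each list. Col11a1 lies highest in every list, and Col9a1, Col9a3 and Col11a2 have no promoter peak in Cho replicate 1.

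Thus 2 of 5 promoters, Col9a2 and Col11a1, had a peak in all 4 lists, against 52.6% of all genes. Within single lists the numbers were 2 of 5 in Cho replicate 1 (58.6% of all genes) and 5 of 5 in Cho replicate 2 (64.7%), WT (62.0%) and the deletion library (67.8%). A peak in the last 3 lists but not in Cho replicate 1 was found for 3 of 5 genes, against 4.66% of all genes. The smallest summit pileup that Cho replicate 1 lists is 6 tags, over a constant background of 1.37. The part of its different peak calling in the missing promoters was not tested.

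Where called, most of these promoters were weak for promoters. The median over all promoter peaks was 12.2, 17.6, 12.7 and 12.4 in library order. In WT, the percentile among all promoter peaks was 14.8 for Col9a1, 5.72 for Col9a2, 6.83 for Col9a3, 36.0 for Col11a1 and 9.40 for Col11a2. No member was above the median in the 3 lists with local backgrounds, and Col11a1 was at percentile 75.3 in Cho replicate 1. The order was different by summit pileup. On that scale, Col11a1 was at percentiles 92.3, 78.4 and 85.3 in those 3 lists, while its local background was 12.7, 8.50 and 8.0 times the library background. The median promoter peak had 3.2, 3.38 and 3.31 times. The other 4 genes reached pileup percentiles of 39.1 to 60.2 in Cho replicate 2 but only 10.3 to 23.5 in WT and 11.8 to 34.8 in the deletion library.

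Col9a1 has a second annotated start 17.6 kb inside the gene, which gives the short form of the α1(IX) chain. Every list had a summit within 1 kb downstream of it. In library order, fold enrichment was 4.22, 16.1, 9.96 and 10.1, with the summits 544, 848, 810 and 859 bp past that start. WT and the deletion library also had a nearer summit, at 164 bp with 4.56 and at 187 bp with 6.07. In each list where the first start was called, the second start therefore had a higher fold enrichment nearby. With any annotated transcript start, 3 of 5 genes had a promoter peak in all 4 lists.

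The second question was where else the loci were open. The 5 loci held 35, 176, 67 and 118 peaks in library order, and the most were in the deepest library, Cho replicate 2. In WT, 8 of the 67 were promoter peaks of the collagen genes, 21 were in their introns, 1 was in an exon, 22 were intergenic and the rest were at or in neighbouring genes. Per 100 kb, Col11a2 was the densest locus in WT, with 14.1 peaks (percentile 92.8 among all genes), and it lies among other genes of the major histocompatibility region. Col11a1 was the sparsest, with 5.17 (percentile 44.6), in a window with no other gene start. Col9a1, with 7.42, also had no other gene start in its window.

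**Figure D2:**
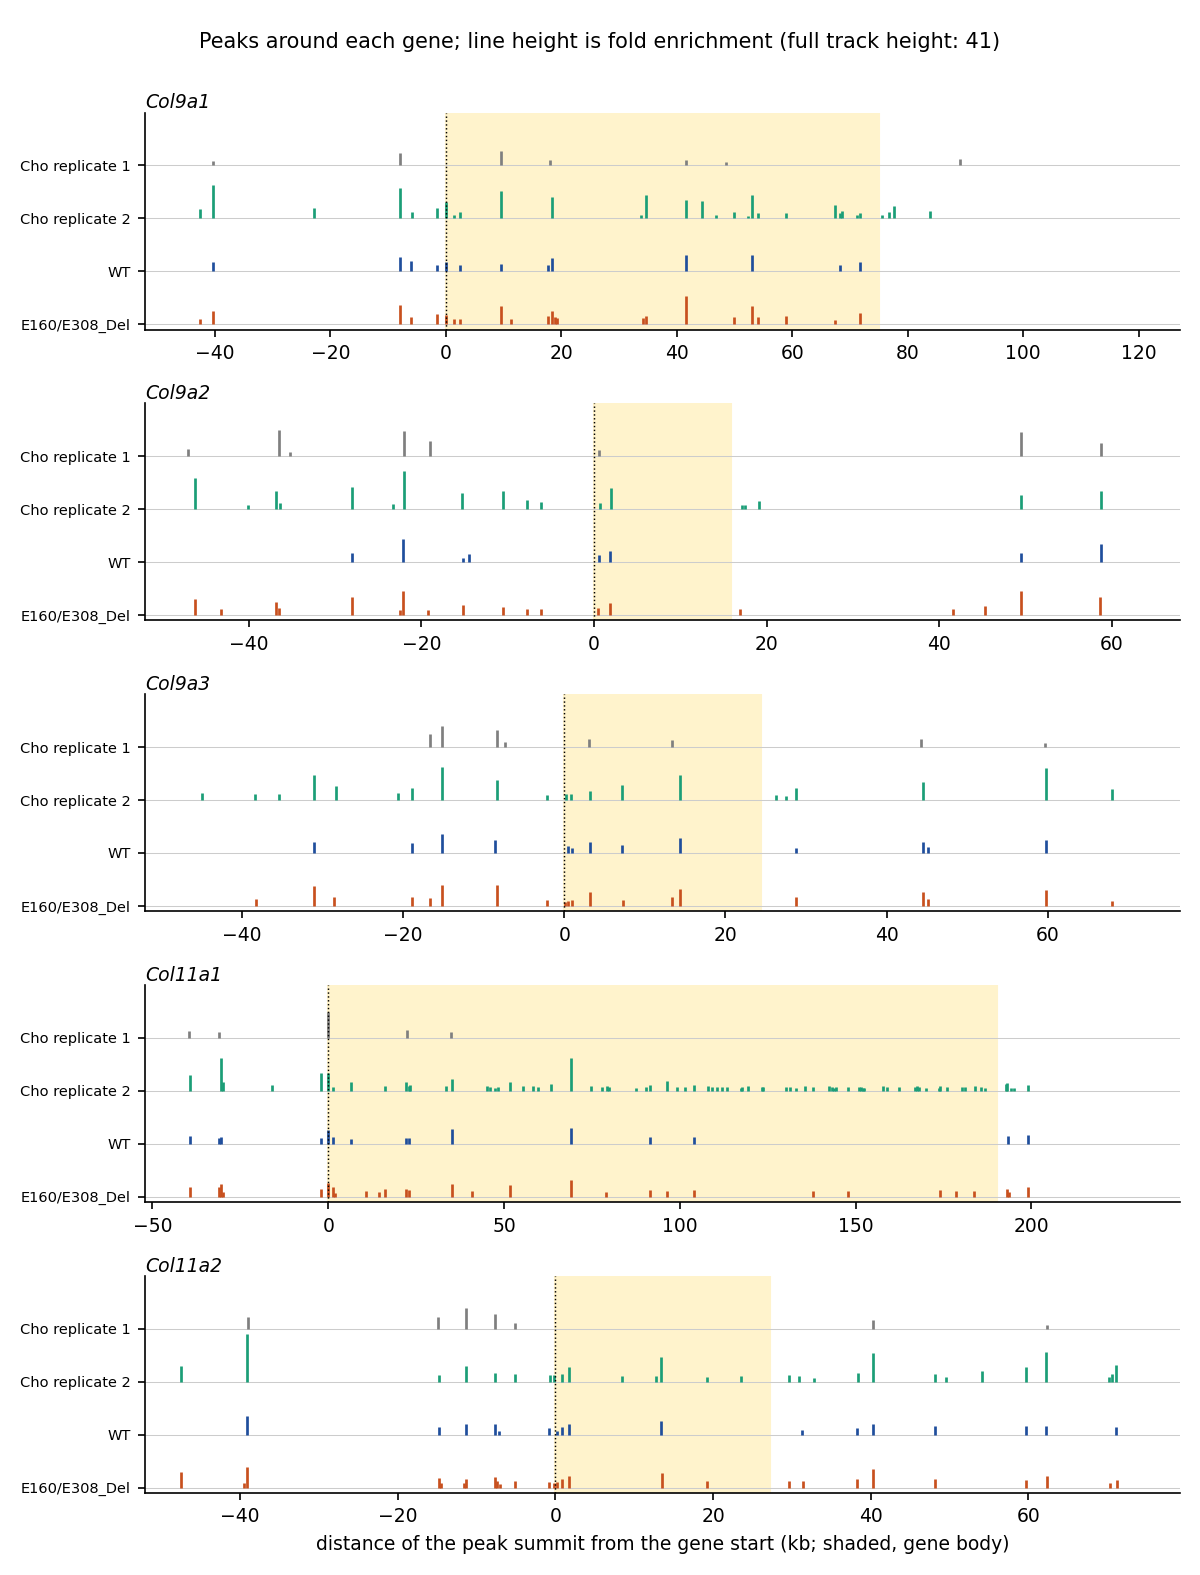
Peaks of each locus in the 4 lists by distance from the gene start in kb, with the gene body shaded and line height giving fold enrichment (the strongest peak of each site). Intronic and upstream sites recur between lists, and Cho replicate 2 holds a dense row of low peaks along Col11a1.

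Summits of the 4 lists within 150 bp of each other, measured from a base shared by the builds, were joined into 219 sites. Of these, 122 were in 1 list, 38 in 2, 39 in 3 and 20 in all 4. Of the 39, 35 lacked only a summit of Cho replicate 1. Overlapping peaks with summits farther apart counted as separate sites, so sites of few lists are overcounted. The Ogfr promoter, for example, had a peak in all 4 lists. It counted as a site of WT alone at 8.62 kb upstream of Col9a3 and a site of the other lists at 8.37 kb. The distance was not varied for these counts. The 20 sites of all lists were 2 promoters of the collagen genes, 4 sites in their introns, 6 promoters of other genes, 2 introns of other genes and 6 intergenic sites.

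Col9a1 had 4 sites in all lists and none of them was its promoter. At 7.94 kb upstream (chr1:24176219-24176660, intergenic), fold enrichment was 9.29, 23.7, 11.3 and 14.5 in library order. At 41.6 kb downstream of the start (chr1:24225979-24226164, intron) it was 4.22, 13.8, 12.6 and 21.5. Both were above the promoter in every list that called the promoter. The others lay 40.3 kb upstream (3.38, 25.9, 7.35 and 9.84) and in an intron 9.49 kb downstream (11.4, 20.8, 5.88 and 13.7). An intronic site at 53.0 kb had 17.7, 12.6 and 14.0 and no peak in Cho replicate 1.

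At Col9a2, the strongest site of the gene itself was in an intron 1.82 kb from the start (chr4:120713627-120714187). Its fold enrichment was 16.1, 8.54 and 9.52, above the promoter in each, and it was not called in Cho replicate 1. The strongest WT peaks in the window belonged to other genes, the promoters of Smap2 (18.0) and Zmpste24 (13.8), on either side.

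At Col9a3, an intronic site at 3.19 kb (chr2:180335429-180335751), the one with the SOX pair, was in all lists with 6.33, 6.61, 8.18 and 10.6. A stronger intronic site at 14.4 kb had 19.4, 11.7 and 13.3 in the last 3. The strongest WT peak of the window (14.9, 15.2 kb upstream) was in an intron of 1600027N09Rik. The third in order (10.3) was an intergenic site at 59.8 kb, which was in all 4 lists.

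Col11a1 had a shared intronic site at 35.1 kb (chr3:113768482-113768739), with 4.22, 8.86, 11.1 and 9.66. At 69.0 kb, fold enrichment was 25.0, 12.1 and 12.8 in the last 3 lists, the highest of any Col11a1 intron site in each of them. Upstream, a site 30.6 kb from the start had 25.1 in Cho replicate 2 but 5.15 in WT and 9.84 with the deletion. The third strongest non-promoter peak in WT (6.45) lay 199 kb from the start, past the end of the gene.

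Col11a2 had no intronic site in all 4 lists. Its intronic sites at 13.4 kb (19.2, 10.8 and 11.5) and 1.69 kb (11.4, 8.45 and 9.04) were called in every list but Cho replicate 1. The site at 13.4 kb spanned chr17:34189426-34189876. Of the 6 sites of this window in all lists, 4 were promoters of H2-K1, Ring1, H2-Ke6 and the Slc39a7 and Rxrb pair, and 2 were intergenic, at 40.3 and 62.3 kb. The strongest WT peak was the promoter of H2-K1 (14.6), 39.1 kb upstream. H2-Oa, the other gene starting in the window, had no promoter peak in Cho replicate 1, WT or the deletion library.

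Promoter and gene body were then set against each other by summit pileup within each list. In WT the promoter of Col9a1 had a pileup of 10 and its highest peak in the gene body beyond 1 kb had 24, the values were 11 and 18 for Col9a2, 12 and 22 for Col9a3, and 17 and 24 for Col11a2. Col11a1 was the reverse, with 43 at the promoter and 23 in the body. The deletion library had 17 and 44, 14 and 26, 14 and 40, and 32 and 42 for the first 4 genes, and 61 and 43 for Col11a1. In Cho replicate 2 the body exceeded the promoter 2.47, 3.65, 3.31 and 2.08 times at Col9a1, Col9a2, Col9a3 and Col11a2, and at Col11a1 the ratio was 0.807.

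Thus by pileup the body peak was higher in 4 of 5 genes in each of the 3 lists with local backgrounds, with the same gene, Col11a1, as the exception. Over all genes with both kinds of peak the share was 38.4%, 29.6% and 31.2% in these lists. In Cho replicate 1 only Col11a1 had both, and its body was lower (40.3% of genes had a higher body there). Its promoter interval in that list was 2563 bp wide and covered the intronic site at 1.37 kb of the other lists. Only the highest summit of an interval was kept, so a body summit within it would not be counted. By fold enrichment, a comparison chosen after the data were seen, Col11a1 was no exception. Its highest body value was 25.0, 12.1 and 12.8, above promoter values of 14.0, 10.8 and 10.3, so the body was higher in 5 of 5 genes in each of these lists. Over all genes that share was 47.9%, 37.3% and 43.9%. In Cho replicate 1 Col11a1 had 6.33 in the body and 20.3 at the promoter, and 40.3% of genes had a higher body. Longer genes offer more body peaks, and the shares were not matched for length. Col11a1 was the longest of the 5 at 190.2 kb. The part of gene length in this comparison was not tested. The highest body peaks by pileup lay just past the 1 kb limit at Col9a2 (1.95, 1.82 and 1.85 kb) and Col11a2 (1.71, 1.69 and 1.69 kb). Col9a2 had no other body peak past that limit. The Col11a2 site at 13.4 kb had pileups of 220, 17 and 25, against 144, 17 and 32 at the promoter. Other limits were not tried in this comparison.

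**Figure D3:**
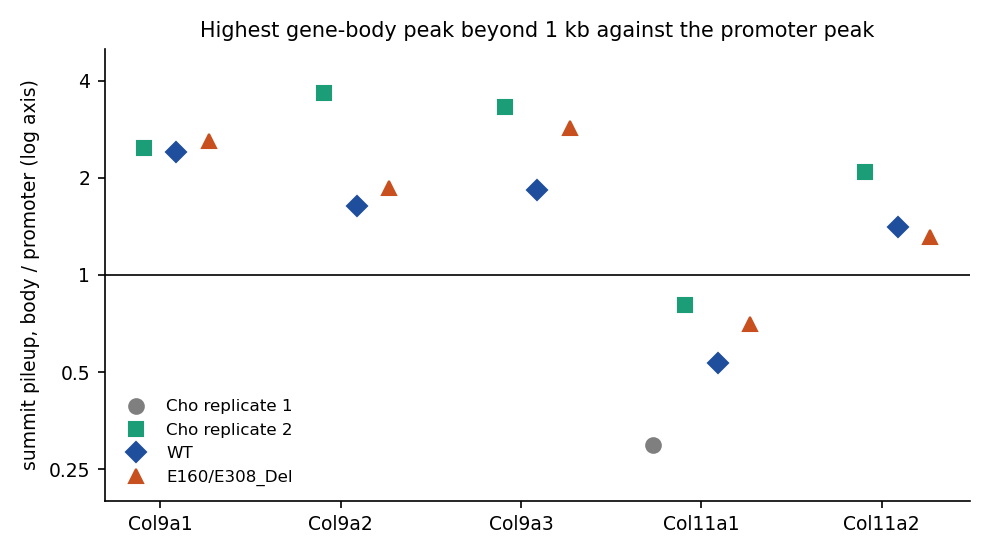
Summit pileup of the highest gene-body peak more than 1 kb from the gene start, divided by that of the promoter peak (log axis), for each gene and library with both. The ratio is above 1 for Col9a1, Col9a2, Col9a3 and Col11a2 in every library with both peaks and below 1 for Col11a1 in all 4.

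The background around the peaks was high over these genes in Cho replicate 2. The local background at a peak is the tag density of the wide window around it. The methods name no control for ATAC-Seq, so this density includes the tags of the peaks in the window. It is therefore not a measure separate from the peaks. Over gene-body peaks its median was 5.86 times the library background at Col9a1, 11.2 at Col9a2, 11.9 at Col9a3, 4.23 at Col11a1 and 5.43 at Col11a2. These were percentiles 91.9, 98.7, 98.9, 84.9 and 90.5 of 12608 genes, whose median was 1.56. The gene-body medians rest on 20, 2, 4, 68 and 8 peaks in the same gene order. The medians of the flanks were 3.69, 1.55, 1.98, 10.2 and 3.86 in the same gene order, so the body was above the flanks at every gene but Col11a1. Related genes differed in this. Col2a1 had 23.5 (percentile 99.9), Comp 14.2 (99.3) and Serpinh1 9.60 (97.9). Col5a2 had 1.18 (37.3), Hapln1 1.89 (57.8) and Adamts3 1.06 (32.3). These 6 were chosen after their values were seen. Col2a1, Comp and Serpinh1 were also high in WT (17.9, 11.3 and 9.28) and in the deletion library (18.4, 9.31 and 9.61).

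At 4 of the 5 genes the multiple was lower in both genotype libraries, and at Col11a2 it was not. In WT the gene-body medians were 1.43, 3.41, 3.57, 1.68 and 5.38 times the library background in the same gene order, at percentiles 34.7 to 88.9 and with a median over genes of 1.97. In the deletion library they were 2.14, 2.93, 3.75, 1.66 and 6.0, at percentiles 59.5, 71.9, 81.1, 49.5 and 93.0. These medians rest on 9, 2, 5, 8 and 4 peaks in WT and 18, 2, 7, 20 and 5 in the deletion library. Col11a2 was above the genes' 80th percentile in all 3 lists and Col9a3 in Cho replicate 2 and the deletion library, whereas Col9a1, Col9a2 and Col11a1 were above it only in Cho replicate 2. Cho replicate 1 gives no local background.

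Col11a1 in Cho replicate 2 also had many peaks, with 79 in the locus (percentile 99.5), 68 of them in the gene body. The other lists had 2, 8 and 20 peaks in the gene body (Cho replicate 1, WT and deletion). Of the 68 body sites of Cho replicate 2, 54 had no summit of another list joined to them (79.4%). Over all genes, 29.7% of the gene-body peaks of Cho replicate 2 had none within 150 bp. Among 1810 genes with at least 10 such peaks, the median share was 27.3%. Those 54 had a fold enrichment of 2.22 to 5.62, with a median of 2.88, and pileups of 16 to 42 tags. Col9a1 had 6 such sites of 20, Col11a2 had 3 of 7, and Col9a2 and Col9a3 had none. Cho replicate 2 was the deepest library, and the part of depth in these low peaks was not tested.

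**Figure D4:**
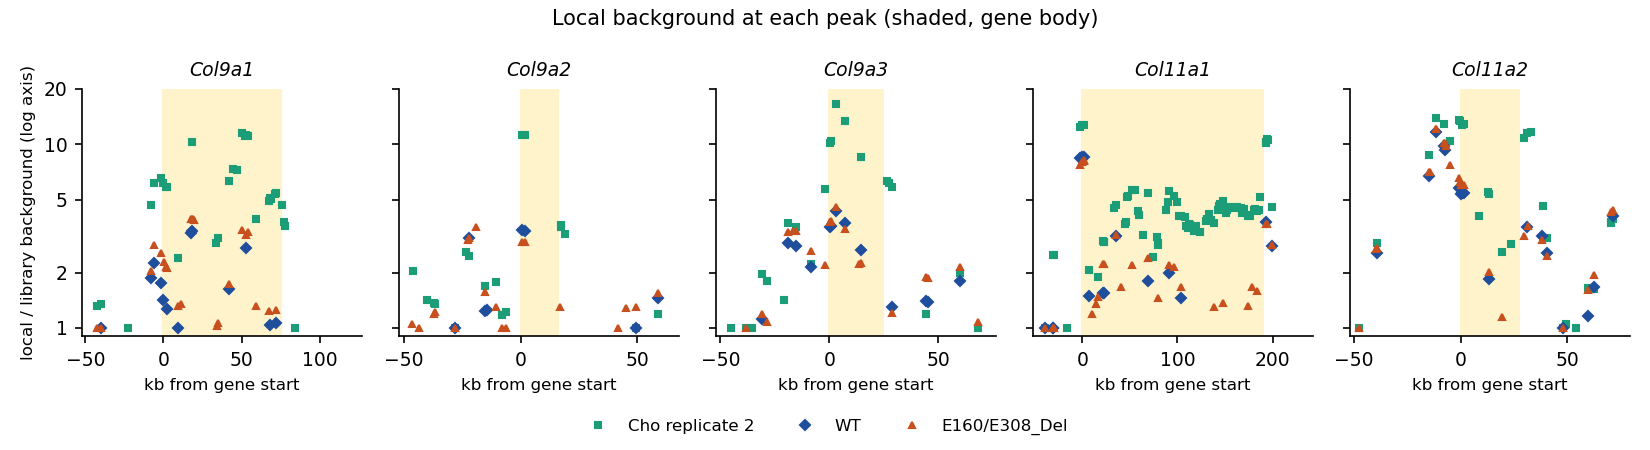
Local background at each peak divided by the library background (log axis) against distance from the gene start in kb, for the 3 lists with a local background, with the gene body shaded. The gene-body medians of Cho replicate 2 (5.86, 11.2, 11.9 and 4.23) lie above those of WT and the deletion library at Col9a1, Col9a2, Col9a3 and Col11a1. At Col9a2 each median rests on 2 peaks.

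The third question was whether loss of E160 and E308 went with changes at these genes. Of the 67 WT peaks, 64 overlapped a deletion peak (95.5%, exact binomial 95% interval 87.5% to 99.1%, counting error only), against 95.9% of all WT peaks. Of the 118 deletion peaks, 65 overlapped a WT peak (55.1%, 45.7% to 64.3%), against 49.4% of all deletion peaks. In both directions the 5 loci were close to the whole lists. The share of WT peaks found was 12 of 13 at Col9a1, 7 of 8 at Col9a2, 13 of 13 at Col9a3, 14 of 15 at Col11a1 and 18 of 18 at Col11a2.

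At the shared peaks, the log2 ratio of fold enrichment (deletion over WT) had a median of 0.18, against 0.28 over all shared peaks, and 46 of 64 were above 0, against 75.3% of all shared peaks. By gene the median was 0.28 at Col9a1, 0.16 at Col9a2, 0.18 at Col9a3, 0.25 at Col11a1 and 0.10 at Col11a2. When summit pileups were divided by the library background instead, the median was −0.05, against −0.01 over all shared peaks, so the direction of this small shift depended on the measure.

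A fold enrichment at least 2-fold higher in the deletion library was seen at 4 of 64 peaks, against 7.79% of all shared peaks, and none was 2-fold lower, against 0.0710%. The intron site of Col9a1 at 9.49 kb went from 5.88 to 13.7 (log2 ratio 1.22). The others were all in the Col9a2 window: 28.0 kb upstream in an intron of Smap2 (6.62 to 13.5, 1.03), 15.2 kb upstream (3.46 to 7.55, 1.13) and 49.4 kb downstream in an intron of Zmpste24 (7.35 to 18.7, 1.35). Their WT pileups were 4 to 9 tags, and the ratio of scaled pileups was 1.97 (interval 0.825 to 5.42), 1.51 (0.643 to 3.95), 2.02 (0.633 to 8.41) and 2.11 (0.988 to 5.02). For all 64 shared peaks this interval, which covers counting error only, included 1, with ratios from 0.576 to 2.11. A change was not detectable at this depth, where the median WT pileup was 12.5 tags.

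**Figure D5:**
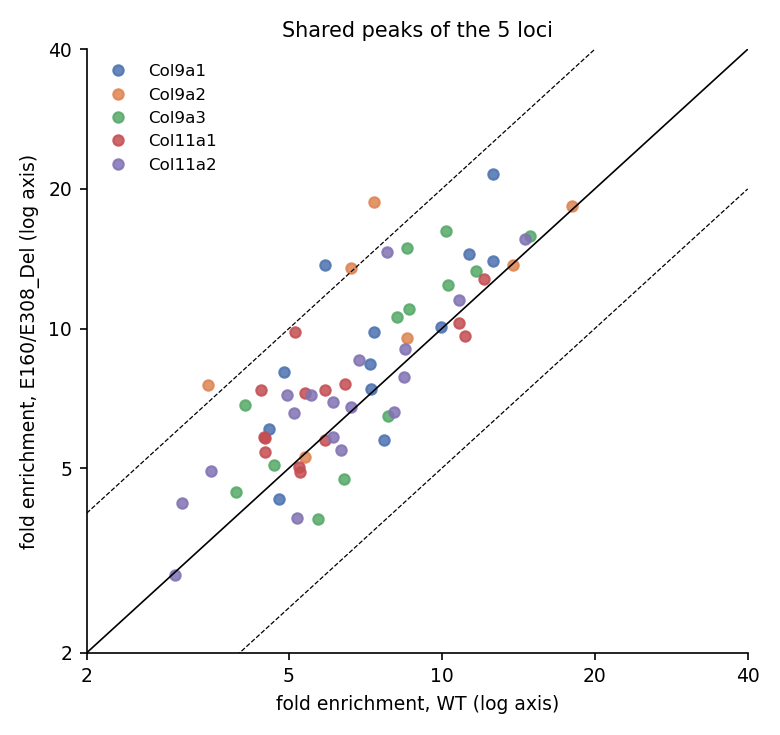
Fold enrichment of the 64 peaks of the 5 loci shared by WT and the deletion library (both axes log), coloured by gene. The solid line is equality and the dashed lines mark a 2-fold difference, which 4 peaks pass, 3 of them at Col9a2.

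The 3 WT peaks without a deletion peak were in an intron of Col9a1 at 68.3 kb (fold enrichment 5.09), 14.5 kb upstream of Col9a2 (6.20) and in an intron of Col11a1 at 6.59 kb (3.9). Their pileups were 6, 8 and 5 tags, and the first and last also had a summit in Cho replicate 2. Of the 53 deletion peaks without a WT peak, 32 had a summit in a Cho library (60.4%), against 51.9% of such peaks over all genes. The strongest of each locus were at 34.6 kb in Col9a1 (6.59), 46.2 kb upstream of Col9a2 in Smap2 (12.7), at 13.4 kb in Col9a3 (6.66), at 51.8 kb in Col11a1 (8.84) and 47.5 kb upstream of Col11a2 (12.3). Each of these 5 had a summit in a Cho library, Cho replicate 1 for Col9a3 and Cho replicate 2 for the others, so none was seen in the deletion library alone.

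The Cho replicates were compared by summit distance from the gene start of each build. Of 35 Cho replicate 1 peaks, 9 had a Cho replicate 2 summit within 150 bp (25.7%, exact interval 12.5% to 43.3%), against 48.8% of such peaks over all genes. The annotated gene starts of the builds differ by 518 bp at Col11a2, 312 bp at Col9a3 and 181 bp at Col9a2. Measured from a base shared by the builds, a comparison chosen after the data were seen, 21 of 35 were found (60.0%, 42.1% to 76.1%), against 64.8% over all genes. By gene these were 4 of 7 at Col9a1, 5 of 8 at Col9a2, 4 of 8 at Col9a3, 2 of 5 at Col11a1 and 6 of 7 at Col11a2.

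Short binding words were counted in 300 bases around the summit of the 64 shared WT peaks, on both strands. ACAAAG or ACAATG, the SOX words, were in 21 (32.8%) against 27.0% of all WT peaks, and TGTGGT, for RUNX factors of bone and cartilage, in 21 (32.8%) against 25.8%. TGANTCA, for AP-1, was in 8 (12.5%) against 22.2%. The exact intervals were 21.6% to 45.7% for SOX and for RUNX and 5.55% to 23.2% for AP-1, and each included the share of all WT peaks. Around the 65 shared peaks of the deletion list, SOX words were in 36.9% against 28.9% of all deletion peaks and RUNX in 30.8% against 27.3%. AP-1 was in 12.3% (interval 5.47% to 22.8%) against 25.8%, a share that this interval did not include. These 65 peaks all overlapped a WT peak, whereas 49.4% of all deletion peaks did. GC boxes were in 27.7% of the 65 against 15.4%, so the 2 sets were unlike and the AP-1 difference cannot be assigned to the loci. The SOX pair was in 1 peak (1.20% of all WT peaks), the CTCF core motif in 2 (2.33%), and the palindromic NFI motif in none (0.0429%). By gene the SOX words were in 3 of 12 peaks at Col9a1, 5 of 7 at Col9a2, 6 of 13 at Col9a3, 3 of 14 at Col11a1 and 4 of 18 at Col11a2, and RUNX was most frequent at Col11a1, in 7 of 14.

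Genes whose products act with these collagens were examined from a list by role. Promoters of the fibril and matrix partners held a peak for 6, 11, 9 and 11 of 13 genes in library order (46.2%, 84.6%, 69.2% and 84.6%). Over all genes the share was 58.6%, 64.7%, 62.0% and 67.8%, so the partners were below it in Cho replicate 1 and above it elsewhere. Acan, the main proteoglycan of cartilage, Matn1, a matrilin, and Chad, chondroadherin, had the same pattern as Col9a1, Col9a3 and Col11a2, with no promoter peak in Cho replicate 1 only. Col2a1, whose chain is shared by collagens II and XI, had 4.65, 5.71, 5.56 and 5.04, as low as Col9a2. Matn3 (8.02, 19.9, 20.6 and 18.8) and Col5a2 (16.0, 21.7, 13.5 and 14.9) were higher, and Comp and Epyc had no promoter peak in any list.

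Enzymes and chaperones of collagen folding and processing held a promoter peak for 14, 13, 14 and 14 of 14 genes, against 58.6%, 64.7%, 62.0% and 67.8% of all genes. P4ha1, a prolyl hydroxylase subunit, had 22.8, 17.7, 12.3 and 11.2, and Serpinh1, the collagen chaperone HSP47, had 16.9, 10.4, 8.70 and 7.72. Their median percentile among promoter peaks was 43.5 in WT, against 14.9 for the matrix partners with a peak. Of the regulators Sox9, Sox5 and Sox6, 2, 3, 3 and 3 of 3 held a promoter peak, against the same shares of all genes. Sox5 was the one without a peak in Cho replicate 1.

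The genes most like each member were found over 8 percentiles, the promoter fold enrichment and the peaks per 100 kb in each of 4 lists, with 0 where no promoter peak was called. They were Lrmp and Ubb for Col9a1 (distances 15.6 and 17.2), Abca4 and Asb2 for Col9a2 (10.9 and 13.8), Kremen2 and Kcns1 for Col9a3 (9.32 and 10.1), P4ha1 and Fn1 for Col11a1 (39.1 and 39.3) and Prph and Antxr1 for Col11a2 (9.53 and 9.66). Col11a1 was the farthest from its nearest genes, and none of the 5 was among the nearest of another.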

How the data were processed

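Peak lists of 4 ATAC-Seq libraries were used, with groups from the sample labels. Per the study methods and the submitters' processing notes, the authors used fastp, Bowtie2 2.4.4, Picard 2.20.7, SAMtools 1.9 and MACS2 2.2.4 at a q-value of 0.05, and named mm9. The methods give another Picard version. In the deposited lists, fold enrichment is the ratio of tags at the summit to those of the background. The deposited lists also give −log10 p-values, −log10 q-values and a score made from the latter, which was not used. Cho replicate 2 was read as GRCm38, since 64.7% of promoters held its peaks with those positions and 17.1% with NCBIM37 positions.

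One peak was kept per interval, that of highest fold enrichment. A gene start was the 5′ end in GENCODE M1 (NCBIM37) or RefSeq (GRCm38), over 18101 protein-coding genes found once by symbol in both. Whole summit pileups and backgrounds were solved from fold enrichment and p-value with the Poisson model of MACS2, which met both values for 100% of peaks, and the solution was tested on simulated data. A background divided by the smallest peak width gave tags per Mb. Overlap was 1 bp or more. A RefSeq promoter sequence found unchanged in NCBIM37 tied the builds within each locus. At Col9a3, that of Ogfr was used.

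Members, gene lists and comparisons were chosen with earlier results of these data known. Named peaks were the promoter peaks, the 3 strongest other WT peaks, the strongest peak of each locus called in 1 genotype, genes starting in the windows, the listed partners and the 2 most similar genes. Sites recurring in all lists were added after their values were seen. Colgalt1, Snorc and Spi1 were not matched. Shares have exact binomial (Clopper-Pearson) 95% intervals. With 1 library per genotype no p-value is given. Alternatives covered windows, q-values, overlap, measures and reference lists. The tools were scipy 1.17.1, pandas 2.3.3 and numpy 2.4.6 under Python 3.11.15.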

Additional observations from a re-analysis of the deposited data

How the results depend on the processing

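The number of collagen promoters with a peak in all 4 lists, 2, fell to 1 within 500 bp or at q below 1e-05, and ranged from 2 to 5 when either Cho replicate was left out, being 5 without Cho replicate 1. It was 2 with NCBIM37 gene starts in every list, an alternative added after the data were seen. Numbers of peaks in the loci fell with the gene body alone, to 9 and 102 in the Cho replicates, 28 in WT and 52 with the deletion. For Cho replicate 1 they also fell to 23 with flanks of 20 kb and to 22 at q below 1e-05. With equal numbers of strongest peaks, 73.1% of WT peaks of the loci were found in the deletion library and 80.6% of deletion peaks in WT. The shares over the whole lists were not computed at this setting, so these values cannot be set against them. The median log2 ratio was 0.74 by −log10 q-value and −0.05 by summit pileup over library background. The number of peaks 2-fold higher in the deletion library was 22 by −log10 q-value, 2 by scaled pileup, 7 with Cho replicate 1 as reference (3 were 2-fold lower), 2 with flanks of 20 kb and 1 in the gene body. The Cho share was 45.7% within 300 bp, 11.4% within 50 bp and 60.0% from a shared base. In 100 bases, where fewer words can occur, SOX words were in 10.9% and RUNX in 15.6% of the shared peaks. By fold enrichment, an alternative added after the data were seen, the gene body exceeded the promoter at 5 of 5 genes in each list but Cho replicate 1. Of 101 recomputed values, 76 stayed near the reported one (counts within 1.5 times, shares and medians within their interval, means within 1 SD) and 25 moved further. No paired analysis was possible because each genotype has 1 library and only the Cho libraries carry replicate numbers. Intervals and pileups cover counting error only, and WT, the shallowest list, limits what could be seen between the genotypes.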
